A study of Mus musculus with 6 samples.

Results

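The cytosolic ribosomal protein genes encode the proteins that build the ribosome of the cytosol together with ribosomal RNA, and 82 of them were among the 24906 genes listed in the deposited table. They were chosen by name: protein-coding genes of GENCODE release M21 whose symbol is that of a small-subunit (Rps), large-subunit (Rpl) or acidic stalk (Rplp) protein. The annotation holds 83 such genes, and Rpl10l had no row. The set comprised 32 small-subunit genes, 47 large-subunit genes and 3 stalk genes. Polyadenylated RNA had been sequenced from the spleens of 6 mice of the C57BL/6J strain, all between 12 and 16 months of age. The 3 D3TA mice carried a CRISPR/Cas9-made T283A substitution in Ccnd3, the gene for cyclin D3, in a line bred and kept as heterozygous knock-in. The 3 age-matched WT mice did not carry it. Per the series' design text, the knock-in mice at this age have severe symptoms of myeloproliferative neoplasm, an overproduction of myeloid blood cells. The comparison asks how transcript levels in such spleens differ from those of WT spleens.

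A cytosolic ribosome joins a small subunit, which reads the messenger RNA, to a large subunit, which forms the peptide bonds and carries a stalk of acidic proteins that recruits elongation factors. Most of the proteins are needed in equal numbers, and their genes are among the most highly transcribed of proliferating and secreting cells, lymphocytes and blood progenitors included. In humans, a faulty copy of any of several of them causes Diamond-Blackfan anaemia, a failure of red cell production. Their messenger RNAs begin with a run of pyrimidines, the TOP motif, through which mTOR and LARP1 control translation.

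Start sites of ribosomal protein genes are shown here because that pyrimidine run is the feature that most of the family is known to share. RefSeq on GRCm38.p6 gave a promoter for 62 of the 82 genes. The sequences run 5′ to 3′ on the coding strand from 10 bases before to 20 bases after the annotated start. The letters CTTTC are in capitals where present. CTTTC is a fixed word and not the TOP motif itself, so the counts and medians below do not divide the genes by that motif. Rps6 has no capitals, yet the pyrimidine run cctctttttc spans its annotated start. Rps27 (chr3:90213629-90213658, minus strand) and Rpl11 (chr4:136053374-136053403, minus) were among the 5 genes with the lowest D3TA to WT ratio. Rpl18 (chr7:45718061-45718090, plus) and Rpl15 (chr14:18270967-18270996, minus) were 2 of the genes whose D3TA and WT values did not overlap. Rplp2 (chr7:141447641-141447670, plus) is a stalk gene, and Rps6 (chr4:86857348-86857377, minus) encodes the S6 kinase substrate. Rps10 (chr17:27635225-27635254, minus) had the highest D3TA to WT ratio.
Rps27: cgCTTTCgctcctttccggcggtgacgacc
Rpl11: ccataaggccacggggccggaagtctccct
Rpl18: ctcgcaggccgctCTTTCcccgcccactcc
Rpl15: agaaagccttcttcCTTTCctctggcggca
Rplp2: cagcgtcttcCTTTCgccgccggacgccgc
Rps6: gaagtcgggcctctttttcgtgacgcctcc
Rps10: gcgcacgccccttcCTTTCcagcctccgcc
CTTTC was present on the coding strand within 25 bases either side of the start in 19 of the 62 genes (30.6%). The share was 7.87% of all 27025 genes with a RefSeq promoter, a set not limited to the genes listed in the deposited table. Counting both strands, the shares were 40.3% and 14.4%. CGGAAG, the core letters bound by ETS factors, was present on either strand of the whole 300-base window in 42 of the 62 genes (67.7%). Among the same 27025 genes the share was 18.8%. The median D3TA to WT difference was -0.45 (log2) for the 19 tested genes with CTTTC and -0.38 for the 42 tested genes without it. For CGGAAG it was -0.37 in 42 genes with a match and -0.42 in 19 without. The groups with and without either motif thus had close medians, and no test was made of them. A match of letters is a description of the sequence and not a measured start or bound site.

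All values below are normalized counts, which are reads divided by a size factor of each library. The libraries held 14944622 to 19456838 reads assigned to genes, and 3 reads correspond to 2.59 to 3.36 normalized counts. WT-2 stood apart in listing 8449 genes at 0, against 3193 to 5170 in the others. Hemoglobin genes took 6.39%, 6.75% and 6.57% of reads in D3TA-1, D3TA-2 and WT-3, and 1.40% to 1.91% in the other 3. D3TA-3 and WT-1 carried reads of Y-linked genes, with 2725 and 2751, against 0 to 18 in the other 4. B cell, T cell and red pulp macrophage markers were above 0 in every library. Ccnd3 itself was at 7842, 3509 and 2424 in D3TA and 3086, 3064 and 2433 in WT (log2 difference 0.51, adjusted p = 0.713 by limma), and its level cannot show a single-residue change.

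Ribosomal protein genes took 9.61%, 15.3% and 12.8% of all reads in D3TA-1, D3TA-2 and D3TA-3, and 12.4%, 17.7% and 20.4% in WT-1, WT-2 and WT-3. The D3TA share averaged 12.6% ± 2.84 and the WT share 16.8% ± 4.04 (SD, n = 3 each). The 2 groups overlapped, because WT-1 lay below D3TA-2 and D3TA-3. The difference of -4.29 percentage points (SE 2.85) did not pass an exact 2-sided permutation test (p = 0.3, also after adjustment over the 5 shares tested), in a design that cannot give a p below 0.1. Counting error was far smaller than this spread, since the 95% Wilson interval of each share reached at most 0.0194 percentage points either side. In RNA of a whole spleen, fewer cells rich in these transcripts and less of them per cell cannot be told apart.

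**Figure D1:**
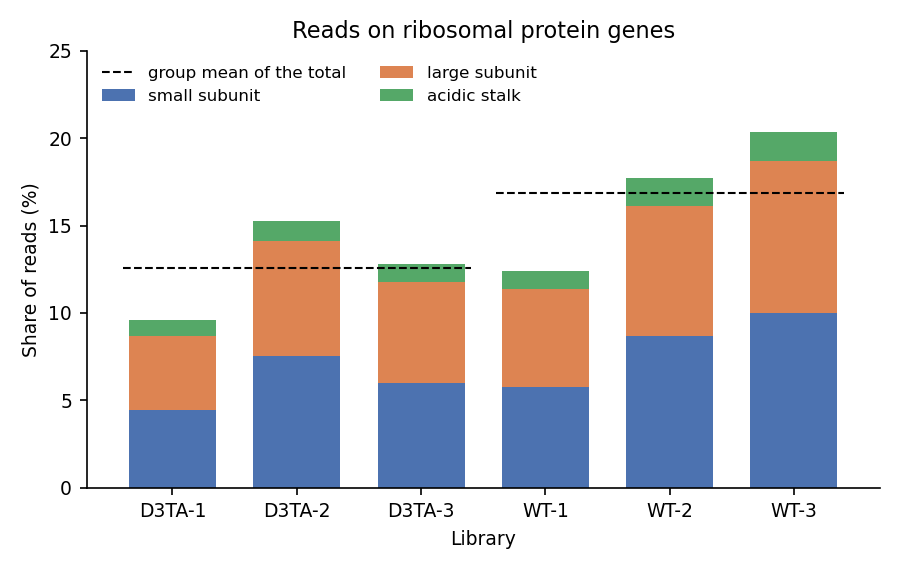
Share of each library's reads on the 82 ribosomal protein genes (vertical axis, percent), stacked by small subunit, large subunit and acidic stalk, with dashed lines at the group means of the total. The bars range from 9.61% in D3TA-1 to 20.4% in WT-3, and WT-1 at 12.4% lies among the D3TA libraries.

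Small-subunit genes took 4.43%, 7.52% and 6.00% of reads in D3TA and 5.78%, 8.66% and 9.99% in WT (exact permutation p = 0.3, difference -2.16 points). Large-subunit genes took 4.28%, 6.58% and 5.76% in D3TA and 5.59%, 7.46% and 8.70% in WT (exact permutation p = 0.3, difference -1.71 points). The 3 stalk genes, Rplp0, Rplp1 and Rplp2, took 0.903%, 1.17% and 1.02% in D3TA and 1.06%, 1.61% and 1.67% in WT (exact permutation p = 0.2, difference -0.418 points). In every one of these shares D3TA-1 was the lowest library and WT-3 the highest.

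The size of the difference varied with the libraries compared. In the libraries rich in hemoglobin reads (2 D3TA, 1 WT), D3TA differed from WT by -7.92 percentage points. In those poor in them (1 D3TA, 2 WT) the difference was -2.30 points. Among the 4 libraries without Y-linked reads (2 per group) it was -6.60 points, whereas D3TA-3 was 0.352 points above WT-1, the only pair with Y-linked reads. These strata hold too few samples for a test, and the part of sex or blood content in the difference was not tested.

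Markers of other cell types differed between the same libraries. Summed B cell markers lay between 9637 and 33016 in D3TA and between 58277 and 68740 in WT, with lower values in D3TA for 8 of 8 genes. Summed T cell markers lay between 3269 and 11401 in D3TA and between 9529 and 14785 in WT, with lower values for 8 of 8. Neutrophil granule and marker genes summed to between 79981 and 436771 in D3TA and between 11742 and 27862 in WT, with higher values in D3TA for 10 of 10. All of these were above 0 except Mmp8, which was at 0 in WT-2. Summed erythroid markers lay between 12933 and 100659 in D3TA and between 11315 and 22343 in WT, with higher values for 8 of 8. Red pulp macrophage markers summed to between 16668 and 25688 in D3TA and between 24288 and 53557 in WT, highest in WT-3, with lower values in D3TA for 7 of 7 genes. Megakaryocyte markers summed to between 5167 and 12084 in D3TA and between 3952 and 5631 in WT, with higher values for 6 of 6. D3TA-1 had the lowest B cell sum, T cell sum and ribosomal protein share of all 6 libraries, and within D3TA the library highest in B cell markers, D3TA-2, was also highest in that share. Within WT the library highest in B cell markers, WT-1, was lowest in it. The part of cell composition in the ribosomal protein values was not tested.

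Gene by gene, most of the family had lower values in D3TA, but no gene passed the test. Of the 81 ribosomal protein genes with enough reads to be tested (3 or more libraries with 10 or more normalized counts), 76 (93.8%) had a log2 difference, D3TA minus WT, below 0, against 45.5% of all 15564 tested genes. The median difference was -0.42, or 1.34-fold lower in D3TA, where the median of all tested genes was 0.06. The quartiles lay at -0.60 and -0.24, and standard errors ran from 0.27 to 1.02 with a median of 0.37. Limma called 0 of the 81 at an adjusted p under 0.05, and 0% of all genes, and the smallest adjusted p of the family was 0.397. At an unadjusted p under 0.05, 5 genes (6.17%) were lower, against 3.83% of all tested genes, and 0 were higher, against 6.08%. EdgeR also called 0 of the 81 (0% of all genes) with 5 lower at an unadjusted p under 0.05 (3.98% of all genes). Limma-voom called 0 (0%) with 6 lower at an unadjusted p under 0.05 (3.68%). DESeq2 called 0 of the family, where its smallest adjusted p was 0.0620, but 2.54% of all genes with an adjusted p.

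**Figure D2:**
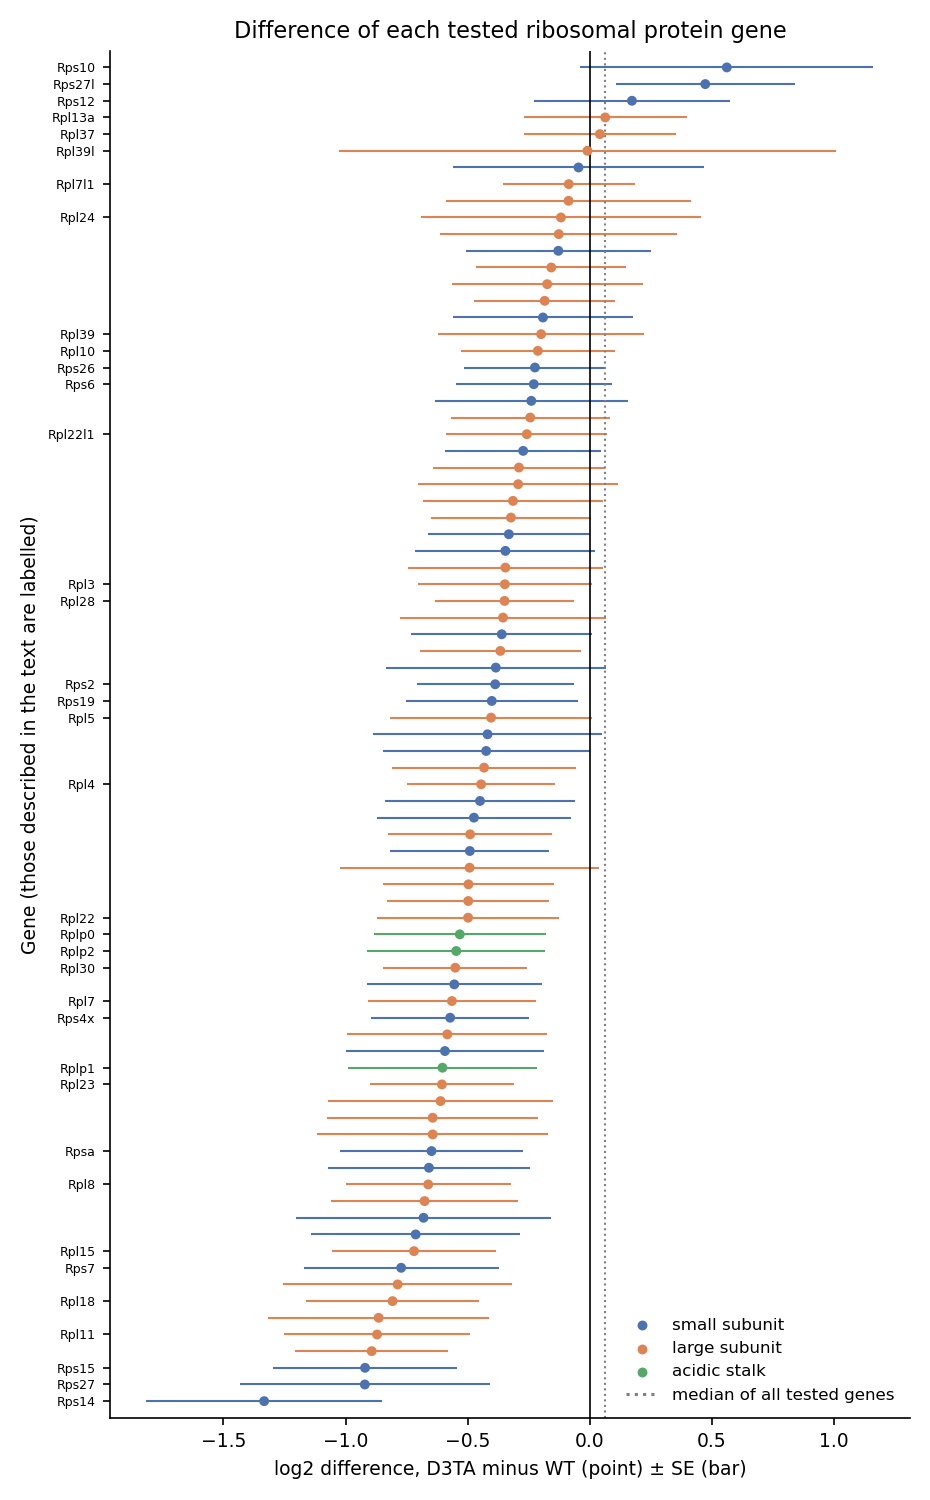
Log2 difference between D3TA and WT for each of the 81 tested ribosomal protein genes (point) with limma's standard error (bar), coloured by small subunit, large subunit and stalk; the genes described in the text are labelled. The dotted line is the median of all tested genes, 0.06, and 76 of the 81 points lie below 0.

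WT-3 gave the highest value for 64 of the 81 genes, WT-2 for 10, D3TA-2 for 5 and WT-1 for 2. D3TA-1 gave the lowest value for 50, D3TA-3 for 16 and WT-1 for 11. Averaged over the genes and set against the WT mean, D3TA-1 lay at -0.70, D3TA-2 at -0.04 and D3TA-3 at -0.50, and WT-1 at -0.47, WT-2 at 0.05 and WT-3 at 0.41 (log2). D3TA-2 thus lay at the level of WT-2, and WT-1 at that of D3TA-3. Leaving out 1 D3TA library, the number of genes below 0 was 71 without D3TA-1 (45.1% of all genes), 79 without D3TA-2 (45%) and 73 without D3TA-3 (47.3%). Leaving out 1 WT library, it was 78 without WT-1 (45.2%), 74 without WT-2 (47.8%) and 64 without WT-3 (46.8%). It was 66 when D3TA-1 and WT-2 were both left out (47.2%). The number lower at an unadjusted p under 0.05 was 1 without D3TA-1 (2% of all genes), 7 without D3TA-2 (3.06%) and 3 without D3TA-3 (5.28%). It was 19 without WT-1 (3.71%), 0 without WT-2 (2.75%) and 1 without WT-3 (3.71%), where 1 gene, Rps27l, was higher at that p (6.46%). With a term for a high hemoglobin share it was 11 (3.82% of all genes).

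**Figure D3:**
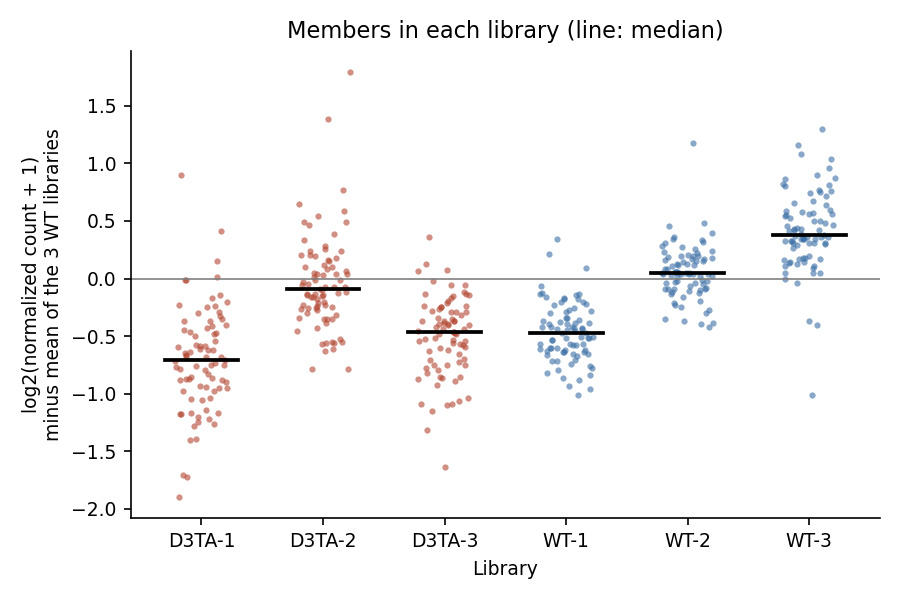
Log2 normalized count of each tested ribosomal protein gene in each library, less the mean of the 3 WT libraries (points, 1 per gene) with the median of each library as a line. D3TA-1, D3TA-3 and WT-1 sit below 0, D3TA-2 and WT-2 near 0 and WT-3 above.

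The order of the genes by level was nearly the same in every library, with a Pearson correlation of 0.964 to 0.988 over the 81 genes in the 15 pairs of libraries, as a description of genes that share those libraries. The 10 most abundant genes held 28.6% of the family's reads and the top 20 held 46.1%. In 78 of the 82 genes every library was at 1000 or more. Per kilobase of transcript, the highest mean level was that of Rplp1, a stalk protein, at 163273 normalized counts. Rps14 followed at 101322 and Rps27 at 100644. These ranks depend on the 1 principal transcript taken for each gene, with lengths from 345 to 5179 bases, and other transcripts could change them. Rplp1 itself was at 57705, 81171 and 52288 in D3TA and 62427, 108398 and 126851 in WT, with a difference of -0.60 (SE 0.39, adjusted p = 0.649). Its D3TA and WT values overlapped.

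In the small subunit, 29 of 32 tested genes were below 0 (against 45.5% of all tested genes), with a median of -0.41. At an unadjusted p under 0.05, 2 were lower, against 3.83% of all tested genes. Rps14, a platform protein whose human ortholog lies in the part of the long arm of a chromosome lost in a form of myelodysplastic syndrome, had the lowest difference of the family. Rps14 (ENSMUSG00000024608, chromosome 18, 60747098 to 60778546, GRCm38) was at 27997, 60335 and 41776 in D3TA and 51754, 145622 and 149743 in WT. WT-1 lay below D3TA-2, while WT-2 and WT-3 were higher than every D3TA library. The difference was -1.33 (SE 0.48), 2.52-fold lower, with an adjusted p of 0.408.

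Rps15, a head protein needed for late maturation of the small subunit, was at 23740, 36410 and 25929 in D3TA and 34341, 64504 and 68533 in WT (-0.92, SE 0.38, adjusted p = 0.455). WT-1 again lay within the D3TA range. Rps27, a zinc-finger protein of the small subunit, was at 12462, 41957 and 19680 in D3TA and 22299, 56487 and 55448 in WT (-0.92, SE 0.51, adjusted p = 0.598). Of its transcript, 98.6% of the 50-base words also occur in the near-identical gene Rps27rt, so reads of the pair could be split between rows. Rps27rt was at 2193, 5567 and 2531 in D3TA and 4728, 5299 and 7825 in WT (-0.89).

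Rps6, the substrate of S6 kinase, differed by -0.23 (SE 0.32, adjusted p = 0.845), with 32688, 48017 and 42804 in D3TA and 43295, 48702 and 51329 in WT. Rps19, the gene most often mutated in Diamond-Blackfan anaemia, was at 22417, 37586 and 27892 in D3TA and 28078, 40708 and 47359 in WT (-0.40, SE 0.35, adjusted p = 0.737). Both genes overlapped between the groups. Rps12, a small-subunit protein, was at 27664, 47667 and 23650 in D3TA and 17950, 32004 and 37917 in WT (0.17, SE 0.40, adjusted p = 0.914). It was 1 of the 5 genes above 0 and its highest value was that of D3TA-2. Without D3TA-2 its difference was -0.13, and without WT-1 it was -0.15.

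In the large subunit, 44 of 46 tested genes were below 0 (against 45.5% of all tested genes), with a median of -0.39. At an unadjusted p under 0.05, 3 were lower, against 3.83% of all tested genes. Rpl18, a large-subunit protein linked to Diamond-Blackfan anaemia, was at 22012, 27101 and 23186 in D3TA and 31232, 37498 and 63316 in WT (-0.81, SE 0.35, adjusted p = 0.490). Every D3TA library lay below every WT library.

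Rpl11 and Rpl5 bind 5S RNA and hold back Mdm2, the inhibitor of p53, when ribosome assembly is disturbed. Rpl11 was at 15579, 23856 and 19309 in D3TA and 21550, 42856 and 47531 in WT (-0.87, SE 0.38, adjusted p = 0.490). Rpl5 was at 22786, 47859 and 40185 in D3TA and 30126, 52384 and 64346 in WT (-0.40, SE 0.41, adjusted p = 0.776). In both, WT-1 lay inside the D3TA range. Of 10 p53 target genes tested, 4 were below 0 and 6 above, with a median of 0.11 and 0 called. In 2 of the 10 every D3TA library lay above every WT library, against 8.18% of all tested genes. In 1 of the 10 every D3TA library lay below, against 6.84%. The 2 genes of this list with the smallest p, Phlda3 and Bbc3, were both below 0. Phlda3, an inhibitor of AKT, was at 208, 187 and 352 in D3TA and 311, 539 and 412 in WT (-0.78, SE 0.37, adjusted p = 0.530). Bbc3, the death protein PUMA, was at 295, 245 and 233 in D3TA and 306, 405 and 464 in WT (-0.59, SE 0.32, adjusted p = 0.589).

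In 10 genes (12.3% of 81) every D3TA library lay below every WT library, against 6.84% of all tested genes, and in 0 genes was every D3TA library above, against 8.18%. They included Rpl18, Rpl15, Rpl8, Rpl23, Rps4x, Rpl30, Rpl4, Rps2 and Rpl28. The differences of those named ran from -0.81 in Rpl18 to -0.35 in Rpl28. Rpl8 and Rpl4 line the catalytic centre and the exit tunnel, and Rpl23 binds Mdm2. Rps4x and 3 more genes of the family lie on the X chromosome, where 4 of 4 were below 0 with a median of -0.36.

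**Figure D4:**
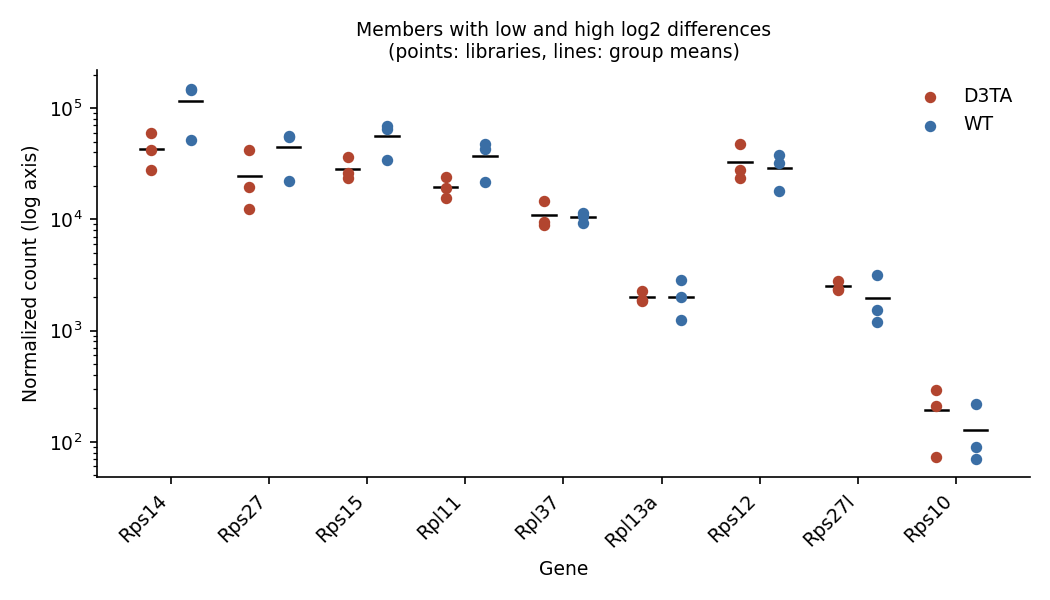
Normalized counts per library (points, log axis) with group means (lines) for ribosomal protein genes with low (Rps14, Rps27, Rps15 and Rpl11) and high (the other 5) log2 differences. D3TA and WT values overlap in each gene shown.

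The 5 genes above 0 were Rps10, Rps27l, Rps12, Rpl13a and Rpl37. Rps10, an mRNA-entry protein, was at 210, 295 and 73.5 in D3TA and 70.7, 90.7 and 219 in WT (0.56, SE 0.60, adjusted p = 0.791). Rps27l was at 2384, 2814 and 2302 in D3TA and 1200, 1531 and 3144 in WT (0.47, SE 0.37, adjusted p = 0.706). The groups overlapped in both, since WT-3 was inside or above the D3TA range. Pseudogenes that share sequence with Rps10 lay below 0. Rps10-ps2 held far more reads than Rps10, at 5697, 10525 and 9499 in D3TA and 9541, 12714 and 17229 in WT (-0.63). Rps10-ps1 differed by -0.21. How reads were divided between these rows and Rps10 was not tested. Rpl13a was at 1903, 2292 and 1852 in D3TA and 1256, 1995 and 2825 in WT (0.06). Rpl37 was at 8892, 14676 and 9487 in D3TA and 9218, 10741 and 11476 in WT (0.04).

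Some low values stand beside shared sequence. Rpl24, Rps10 and Rpl13a were among the lowest rows of the core family, with Rpl24, a bridge protein between the subunits, at 77.1, 75.8 and 93.4 in D3TA and 79.3, 201 and 43.5 in WT. In each of the 3, a gene on the same strand overlaps and repeats much of the transcript: 69.4% of the 50-base words of Rpl24 (Gm28037), 50.8% of Rps10 (RPS10-NUDT3) and 57.4% of Rpl13a (Gm45713). None of those 3 overlapping genes had a row, and whether their reads were dropped was not tested. Over the 82 genes, a median of 43.9% of 50-base words also occurred in another gene, 33 genes shared more than 50%, and 3 genes, Rpl39l and Rpl3l among them, shared none. The median difference was -0.33 in the 33 genes above 50% and -0.48 in the other 48 tested.

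The members were then compared relative to the summed reads of the family. With libraries scaled to that sum, 29 genes were below 0, against 16.2% of all tested genes, and 52 above, and 50 lay within 0.25 (log2) of 0. Limma called 0 of the 81 (smallest adjusted p = 0.330), against 0.218% of all genes, whose median moved to 0.56. This scaling centres the family by construction. The shares of all genes in this paragraph therefore cannot show an excess or a lack of members on either side. Rps14 was the single gene lower at an unadjusted p under 0.05 (0.777% of all genes). It held 1.75%, 2.37% and 2.16% of the family's reads in D3TA and 2.62%, 4.91% and 3.91% in WT, so every D3TA library lay below every WT library (-0.83, SE 0.33). Rps27l was the single gene higher at that p, against 11.6% of all genes, with 0.149%, 0.111% and 0.119% in D3TA and 0.0608%, 0.0516% and 0.0821% in WT (0.98). Groups did not overlap in 5 genes on the lower side (Rps14, Rps15, Rpl11, Rps7 and Rpsa), or 6.17% against 1.5% of all genes. They did not overlap in 7 genes on the higher side, Rps27l and Rps12 among them, or 8.64% against 14.8%. Rps12 held 1.73%, 1.88% and 1.22% in D3TA and 0.910%, 1.08% and 0.990% in WT.

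Paralogs were weighed against the core gene they resemble. Rps27l, a p53-inducible copy of Rps27, made up 16.1%, 6.29% and 10.5% of the pair in D3TA and 5.11%, 2.64% and 5.37% in WT. Every D3TA library lay above every WT library (exact permutation p = 0.1, the smallest possible, and 0.333 adjusted over 5 pairs). Rpl22l1, the copy of Rpl22 that can replace it, made up 20.5%, 17.9% and 17.0% of its pair in D3TA and 17.2%, 16.9% and 14.2% in WT (exact permutation p = 0.2), and the ranges overlapped at WT-1.

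Rpl7l1 made up 8.63%, 4.74% and 5.33% of the pair with Rpl7 in D3TA and 5.33%, 4.14% and 3.87% in WT (exact permutation p = 0.2). Rpl39l, a paralog known from testis, was at 4.28, 43.4 and 7.78 in D3TA and 15.3, 12.3 and 8.70 in WT. D3TA-2 alone was high. Rpl3l, the muscle paralog, was at 1.07, 2.02 and 0.864 in D3TA and 4.78, 0 and 0 in WT, too few reads to be tested. Rps4l, a pseudogene in the annotation and so outside the family, was at 161, 119 and 143 in D3TA and 221, 129 and 235 in WT (-0.42). The core partners Rpl3, Rpl10, Rpl22, Rpl39, Rps4x and Rpl7 had differences of -0.35, -0.21, -0.50, -0.20, -0.57 and -0.56.

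Reads also fell on copies of these genes. Rows named as ribosomal protein pseudogenes, 153 in number, took 0.388%, 0.617% and 0.534% of reads in D3TA and 0.502%, 0.853% and 0.874% in WT (exact permutation p = 0.3). A wider list, drawn up after the files were seen, took every other gene that shares at least 100 of the 50-base words of a member's transcript. Of 346 such rows, 220 were tested, 209 of them pseudogenes. In 194 (88.2%, against 45.5% of all genes) the difference was below 0, with a median of -0.61, and 147 of the 220 lay below the gene they resemble. The groups did not overlap on the lower side in 46 (20.9%, against 6.84% of all genes). Limma called 0 of them, with 32 lower (14.5%, against 3.83% of all genes) and 0 higher (against 6.08%) at an unadjusted p under 0.05. DESeq2 called 7 (3.18%), all lower, against 2.54% of all genes in either direction and 0.705% on the lower side.

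Rps26-ps1, a pseudogene of Rps26, was at 91.0, 73.7 and 70.9 in D3TA and 178, 694 and 444 in WT (-2.27, SE 0.50, adjusted p = 0.202 by limma and 0.000186 by DESeq2). Rps26 itself differed by -0.22. Gm6204, a pseudogene of Rps14, was at 22.5, 50.5 and 22.5 in D3TA and 79.3, 104 and 310 in WT (-2.18, adjusted p = 0.298 by limma and 0.0105 by DESeq2). Both rows had every D3TA library below every WT library. Reads of a copy and its source cannot be told apart where the sequence is the same, so these rows are uncertain.

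**Figure D5:**
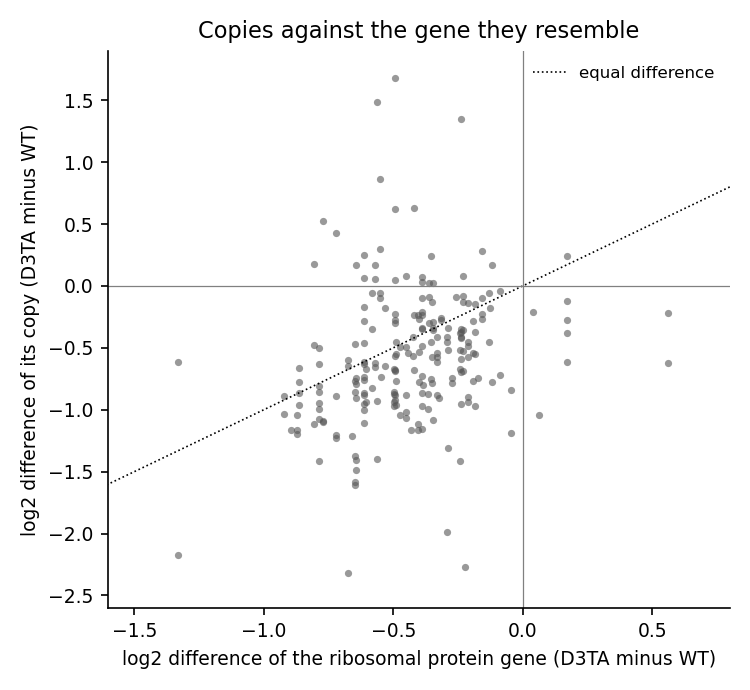
Log2 difference between D3TA and WT of each of the 220 tested copies (vertical axis) against that of the ribosomal protein gene it resembles (horizontal axis). The dotted line marks equal differences, and 147 of the 220 points lie below it.

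Genes around the family were read in the same fit, and limma called 0 in each list. The 18 genes linked to Diamond-Blackfan anaemia, all members, had 17 below 0 and a median of -0.39. The 4 ribosomal components that the naming pattern leaves out had 3 below 0 and a median of -0.66. Fau, which encodes a small-subunit protein fused to a ubiquitin-like protein, was at 24952, 50262 and 32360 in D3TA and 36463, 53068 and 89940 in WT (-0.70, adjusted p = 0.634).

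Of 15 translation factors and other genes whose messenger RNAs are known to carry the TOP motif, 10 were below 0, with a median of -0.32. Eef1b2, an exchange factor of elongation, was at 17829, 24269 and 19211 in D3TA and 20097, 32280 and 49572 in WT (-0.65, adjusted p = 0.622). Eif3f, a subunit of initiation factor 3, was at 4854, 5965 and 8206 in D3TA and 10315, 8610 and 9155 in WT (-0.59, adjusted p = 0.565). Its groups did not overlap, which held on the lower side for 1 of the 15, against 6.84% of all tested genes.

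Ribosome assembly and the mitochondrial ribosome sat near the median of all genes. Of 39 genes of ribosome biogenesis, 22 were below 0 and 17 above, with a median of -0.04. Fbl, the methyltransferase fibrillarin, was at 3077, 1715 and 2340 in D3TA and 3210, 3041 and 3167 in WT (-0.44, adjusted p = 0.664), while Rrp9, a U3 RNA-binding protein, differed by -0.44. Of 77 mitochondrial ribosomal protein genes, 40 were below 0 and 37 above, with a median of -0.01. Mrps16 was at 1087, 1358 and 1136 in D3TA and 1173, 2201 and 2460 in WT (-0.64), and Mrpl42 at 1078, 821 and 889 in D3TA and 589, 572 and 746 in WT (0.55).

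The 10 genes of mTOR and cap-binding control all had differences above 0, where 45.5% of all tested genes were below 0. Their median was 0.42, and 0 were called. In 3 of the 10 every D3TA library lay above every WT library, against 8.18% of all tested genes. Rps6kb2, an S6 kinase, was at 810, 623 and 314 in D3TA and 283, 216 and 313 in WT (1.01, SE 0.39, adjusted p = 0.427). D3TA-3 lay above WT-3 by less than the normalized count of a single read, so the groups were apart by that margin alone. Larp1, the repressor of TOP messenger RNAs, was at 2892, 1232 and 1619 in D3TA and 1725, 857 and 574 in WT (0.92, SE 0.44, adjusted p = 0.537), with WT-1 inside the D3TA range.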

How the data were processed

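The 6 spleen libraries, 3 D3TA and 3 WT, were analysed. Per the labels' protocols, polyadenylated RNA was selected with beads, and no step that marks the strand is given. The tools listed in the submitters' processing notes are HISAT2, DESeq2, Trim Galore, FastQC and CASAVA, with mm10 as the build. Which program counted the reads, and with which annotation, is not given in the sources used here. The deposited unit is a signal: the authors had divided counts by 1 size factor for each library, as the values themselves show. Dividing by the fixed step of each library gave whole reads, within 0.001, for 100% of 149436 values.

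Symbols came from GENCODE M21 on GRCm38, which held 24895 of the 24906 gene identifiers. The members and the lists around them were chosen with earlier results of these data known. Limma 3.58.1 (trend, robust) was fitted to log2(normalized count + 1) of the 15564 genes with 10 or more in 3 or more libraries, with genotype as the factor and Benjamini-Hochberg adjustment over all of them at 0.05, 2-sided. The test was also run on simulated counts, whose settings and outcome are not reported here, and no conclusion is drawn from that check. A fold is 2 to the power of the log2 difference and understates the change of low genes. Shares used recovered reads and an exact permutation test over libraries. Intervals cover counting error only, because no molecular identifiers are described and reads need not be separate molecules.

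Genes with values per library were the 5 lowest and 5 highest differences, the 3 smallest p, the 3 highest levels per length, each paralog with its core gene, Rpl5, Rpl11, Rps19 and Rps6, the 2 smallest p of each other list and Ccnd3, except that some of these are not reported here. Rps27rt, Rps26-ps1, Gm6204, Rps10-ps2, Rps10-ps1, Rpl24 and the members listed for groups without overlap were named after their values were seen. Lengths and shared 50-base words came from 1 principal GENCODE transcript per member, and start sequences from RefSeq on GRCm38.p6. Replicate numbers did not pair the mice (correlations of deviations between same-numbered libraries of -0.057, -0.0046 and -0.13). Alternatives were other scalings, filters, pseudocounts of 0.5 and 5, edgeR 4.0.16, DESeq2 1.42.0, limma-voom, covariates, the replicate block and each library left out, in R 4.3.3 and Python 3.11.15.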

Additional observations from a re-analysis of the deposited data

How the results depend on the processing

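No ribosomal protein gene was called under any alternative that was run, nor was any gene of the ribosome, translation, assembly, mTOR and p53 lists. DESeq2 called 7 of the 220 copies (3.18%), all lower, against 2.54% of all genes in either direction and 0.705% on the lower side. The shares kept their direction in every alternative run. In the strata, which were not among these alternatives, the share of D3TA-3 was 0.352 points above that of WT-1, the only pair with Y-linked reads. The spread among libraries was far wider than the counting error of the shares, and a share test over 3 against 3 cannot give a p below 0.1.

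The count of all genes called, 0 in the limma fit, was 34 with libraries scaled to ribosomal protein reads, 44 with no filter, 472 with DESeq2, 15 with a term for Y-linked reads, 11 with a term for a high hemoglobin share, and 0 to 306 with each library left out, the highest without D3TA-3; the cause was not tested. The median log2 difference of members became 0.086 when libraries were scaled to their own reads, a setting that centres the family by construction, and ran from -0.65 to -0.25 with each library left out. The difference in the share of reads on members ran from -6.49 to -2.53 percentage points with each library left out and was -2.37 without D3TA-1 and WT-2. The replicate block left it at -4.29 (exact sign-flip p = 0.25, the smallest that 3 pairs can give). Limma with the replicate block called 0 members and 0 genes. In that fit 8 members were lower at an unadjusted p under 0.05 in place of 5, and the share of all genes is not given here. No library correlated best with its own number.

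Scaled to ribosomal protein reads, these differences changed sign: Rpl22l1 0.25, Rpl39l 0.42, Rps4l 0.077, Rpl7l1 0.42, Rpl3 0.16, Rpl10 0.29, Rpl22 0.0060, Rpl39 0.30, Rpl5 0.10, Rps19 0.10, Rps6 0.27, Fbl 0.063 and Rrp9 0.061. Rpl39l, at a few reads, was 0.065 by library size, 0.086 with a pseudocount of 5, 0.071 without immunoglobulin, T cell receptor and hemoglobin genes (where Rpl7l1 was 0.0041), 0.60 in edgeR and 0.61 in DESeq2. Rpl37 was -0.019 by upper quartile and -0.038 with the hemoglobin term, where Rpl13a was -0.10 and Rps12 -0.041. Rpl13a was -0.021 in edgeR and -0.0071 in DESeq2. With each library left out, Rpl39l ran from -0.91 to 0.62, Rpl39 ran from -0.56 to 0.078, Rpl37 ran from -0.18 to 0.18, Rpl13a ran from -0.24 to 0.34 and Rps12 ran from -0.15 to 0.39. Without D3TA-1 and WT-2, Rpl22l1 was 0.025, Rpl39l 0.65 and Rpl39 0.19. The alternatives that add or remove genes from the member set were run for the total share and not for the subunits.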
